A study of Rattus norvegicus with 8 samples.

Results

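The genes described here are the cytosolic translation factors and aminoacyl-tRNA synthetases of rat muscle, followed after testosterone was given to castrated rats. They were chosen by name: every gene on the array whose name starts with Eif1 to Eif6, Eef1 or Eef2, without Eif4ebp1 and the Eif2ak kinases, and the cytosolic synthetases from Aars to Yars. The rule found 77 genes among the 26276 gene names of the array, on 99 probes in 171 spots. Of these, 65 genes on 80 probes could be measured, that is, they had a probe well above background on at least 3 of 4 arrays in at least 1 RNA group. The other 12 were Eif1b, Eif2b1, Eif2b4, Eif2c3, Eif2c4, Eif4ebp3, Eif5a2, Cars, Hars, Nars, Vars and Yars, whose probes were well above background on at most 2 arrays of any group. No probe carried the name Gars, so 19 of the 20 synthetases were on the array and 14 were measured.

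Protein synthesis starts when initiation factors bring the initiator tRNA and the messenger RNA to the small ribosomal subunit and find the start codon. Elongation factors then deliver each aminoacyl-tRNA and move the ribosome along, and the synthetases load each tRNA with its amino acid. In skeletal muscle this machinery builds the contractile proteins, and its rate is set largely by phosphorylation of eIF2, of the eIF4E-binding proteins and of eEF2, which an array of messenger RNA does not read.

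The control RNA came, by its labels, from adult Wistar rats that were male, castrated and aged 120±12 days. The treated RNA came from castrated rats of the same strain, sex and age that had received testosterone propionate, an injectable ester of the androgen, as a single subcutaneous dose of 4 mg/kg in 1 mL/kg corn oil, and was compared 8 h or 24 h after it. The series title names muscle atrophy, no label names the muscle, and the labels call the RNA source cells; whether the controls received oil, whether both times share control RNA and whether animals were pooled is not given in the sources used here. Each time had 4 arrays, called biological replicates with dye swap in the series design. Every array held 1 treated and 1 control sample in different dyes, so each value below compares both on the same array, as the log2 of treated over control. At 8 h the treated sample was in Cy3 on arrays 1 and 2 and in Cy5 on arrays 3 and 4, and at 24 h the reverse. Where arrays of opposite dye shared RNA extracts, the p-values are smaller than they should be. Each time may have had a slide to itself, and then the effects of time and slide cannot be told apart.

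The array reads each gene through a probe of 60 bases. Those shown here belong to members at the ends of the ranking and cross an exon junction, because their genome coordinates span more than 60 bases. Coordinates are those of the array file on build rn4. The probe of Eef1e1 lies at chr17:32220067-32221025 on the plus strand, the dimmer of 2 probes of Eef1g at chr1:211651038-211651375 on the plus strand, that of Eef2 at chr7:10018036-10018179 on the minus strand and that of Eif3m at chr3:90384821-90385819 on the minus strand.
Eef1e1: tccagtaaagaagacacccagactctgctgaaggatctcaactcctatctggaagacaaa
Eef1g: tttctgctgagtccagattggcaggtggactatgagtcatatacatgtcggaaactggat
Eef2: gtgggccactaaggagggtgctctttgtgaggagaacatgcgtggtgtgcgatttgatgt
Eif3m: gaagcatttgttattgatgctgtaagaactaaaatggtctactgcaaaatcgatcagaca
Between probes of different members, the best match without gaps held at most 30 identical bases of 60 in 4825 pairs, and 0 pairs reached 45. For the close relatives Eef1a1 and Eef1a2 the best match was 18 bases, and for Eif4a1 and Eif4a2 it was at most 20. Copies of Eef1a1 elsewhere in the genome could still bind its probe.

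The arrays differed in spread. On array 1 of 8 h the SD of the log2 ratio over all genes was 0.444. It was 0.180 to 0.201 on the other arrays of 8 h and 0.236 to 0.307 at 24 h. Several results at 8 h that rest on array 1 are given also without it, but not every ratio at 8 h is. Over all genes, array 2 of 8 h correlated at 0.28 with array 1, -0.13 with array 3 and -0.036 with array 4. Arrays 1, 3 and 4 of 8 h correlated with each other at 0.29 to 0.37, and arrays of 24 h at 0.23 to 0.71. Array 2 thus matched the others of 8 h least, and the counts past the threshold are given also without it. Of 14 markers of muscle fibres, 11 were measured. Their ratios compare treated with control RNA and do not test which tissue it came from. Of these 11, 1 rose at 24 h, Myh1, a fast myosin heavy chain (log2 ratio 1.33, adjusted p = 0.0217). Acta1, skeletal actin, and Actn3, a protein of fast fibres, fell (-0.44 and -0.55, adjusted p = 0.0222 and 0.0396). Markers of other cells moved as well. For these counts, 4.15% of all genes passed as higher and 2.91% as lower at 24 h. Of 10 measured macrophage and monocyte markers 4 rose at 24 h (median 0.40, array medians 0.20 to 0.50). They were Cd163, C1qa, C1qc and Lyz2, while the rest did not pass and ran from -0.10 (Itgam) to 0.51 (Aif1). Of 6 fibroblast markers the 3 collagen genes Col1a1, Col1a2 and Col3a1 rose (1.54, 1.13 and 1.48), while Dcn, Pdgfra and Lum did not pass (-0.0020, -0.029 and -0.25). Of 3 adipocyte markers Fabp4 rose (0.43), and of 4 endothelial markers Kdr did (0.36). No measured marker of lymphocytes, neutrophils, mast cells, smooth muscle, nerve or satellite cells passed. The array medians of 3 erythrocyte markers ran from 0.099 to 1.61 at 24 h and from -2.17 to 0.38 at 8 h, and 0 of these 3 passed the test. Their part in the members' values was not tested, and in whole tissue fewer cells of a type and less RNA per cell cannot be told apart.

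At 24 h, 0 of the 65 members passed the test across all genes (limma, Benjamini-Hochberg adjusted p under 0.05), while 7.07% of the 10881 genes tested did (4.15% higher, 2.91% lower). The smallest adjusted p of a member was 0.052, that of Eef1e1. At an unadjusted p under 0.05 there were 13 members, against 22.1% of all genes. Members passed under some other settings: 7 with array weights (5 higher, 2 lower), when 1562 genes in all passed against 769, and 4 with each time fitted alone, when 1595 did. Leaving out array 1 of 8 h let 3 pass (Eef1e1, Eif4a1 and Wars) and 1235 genes in all, leaving out array 2 of 8 h let 2 pass (Eef1e1 and Eif2a) and 1095 in all, and leaving out array 3 of 24 h let 1 pass (Eif1ax) and 333 in all. The fitted ratios of the members ran from -0.43 (Eif4a2) to 0.32 (Eef1e1) with a median of 0.012, beside a median of 0.00016 over all genes. They stood above 0 for 36 members and below 0 for 29. A ratio beyond 0.5 in either direction was seen in 0 members and in 3.62% of all genes.

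The members were about as variable between arrays as other genes. The median SD over 4 arrays was 0.182 for members and 0.160 for all genes at 24 h. At the median standard error of a member, 0.087, a log2 ratio of 0.33 would have been needed to pass at 24 h. The 95% interval lay within 1.5-fold in either direction, a log2 ratio of 0.585, for 64 of 65 members, as it did for 90.4% of all genes, so this narrowness was common to the array. These counts depended on the processing. With an offset of 16 in place of 50 added to each signal, the interval lay within 1.5-fold for 58 of 65 members and 82.0% of all genes. With the scanner's processed signals, which differ in background correction and normalization too, it did so for 44 members and 43.4% of all genes. With median centring it did so for 31 members and 65.6% of all genes, where the members' ratios were centred above 0. All 4 arrays of 24 h agreed on a higher level for 6 members (15.3% of all genes) and on a lower level for 4 (13.7% of all genes).

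At 8 h, 0 of 65 members passed, against 0.0276% of the 10877 genes tested, and 2 members had an unadjusted p under 0.05 (17.1% of all genes). The median log2 ratio was 0.046, beside -0.012 over all genes, with 41 members above 0 and 24 below; without array 1 it was 0.025, with 37 above 0 and 28 below. Ratios ran from -0.28 (Eef2) to 0.31 (Eif3m). Without array 1 they ran from -0.17 (Eif3k) to 0.24 (Aars). Without array 2, 4 members passed (Eif2s2 and Eif3m higher, Eef2 and Eif3b lower), when 1228 genes in all passed against 3. Array 1 was then the only array of 8 h with treated RNA in Cy3. It read 0.41 for Eif2s2, 1.01 for Eif3m, -0.68 for Eef2 and -0.39 for Eif3b, in the direction of each call. At the median standard error a log2 ratio of 0.73 would have been needed to pass at 8 h, and 0.52 at the smallest standard error of a member, that of Farsa. A fitted ratio under that size would not have passed there. The 95% interval lay within 1.5-fold for 63 of 65 members (91.8% of all genes), for 61 with the offset of 16 (84.1%), for 40 with the processed signals (43.2%) and for 32 with median centring (68.5%). All 4 arrays agreed on a higher level for 9 members (9.29% of all genes) and on a lower level for 4 (12.1% of all genes).

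The signs of small ratios depend on where each array's zero is set. With median centring in place of loess, the median over all genes moved to 0.155 at 24 h and 0.122 at 8 h, and that of the members to 0.264 and 0.251. Then 62 of 65 members stood above 0 at 24 h and 63 at 8 h. Counts above and below 0 in the groups that follow are those under loess. Without array 1 the medians at 8 h of these groups, given below with it, were 0.020 for start codon factors, 0.031 for eIF2 and eIF2B, -0.038 for eIF3, 0.056 for eIF4, -0.057 for elongation and 0.026 for synthetases.

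**Figure D1:**
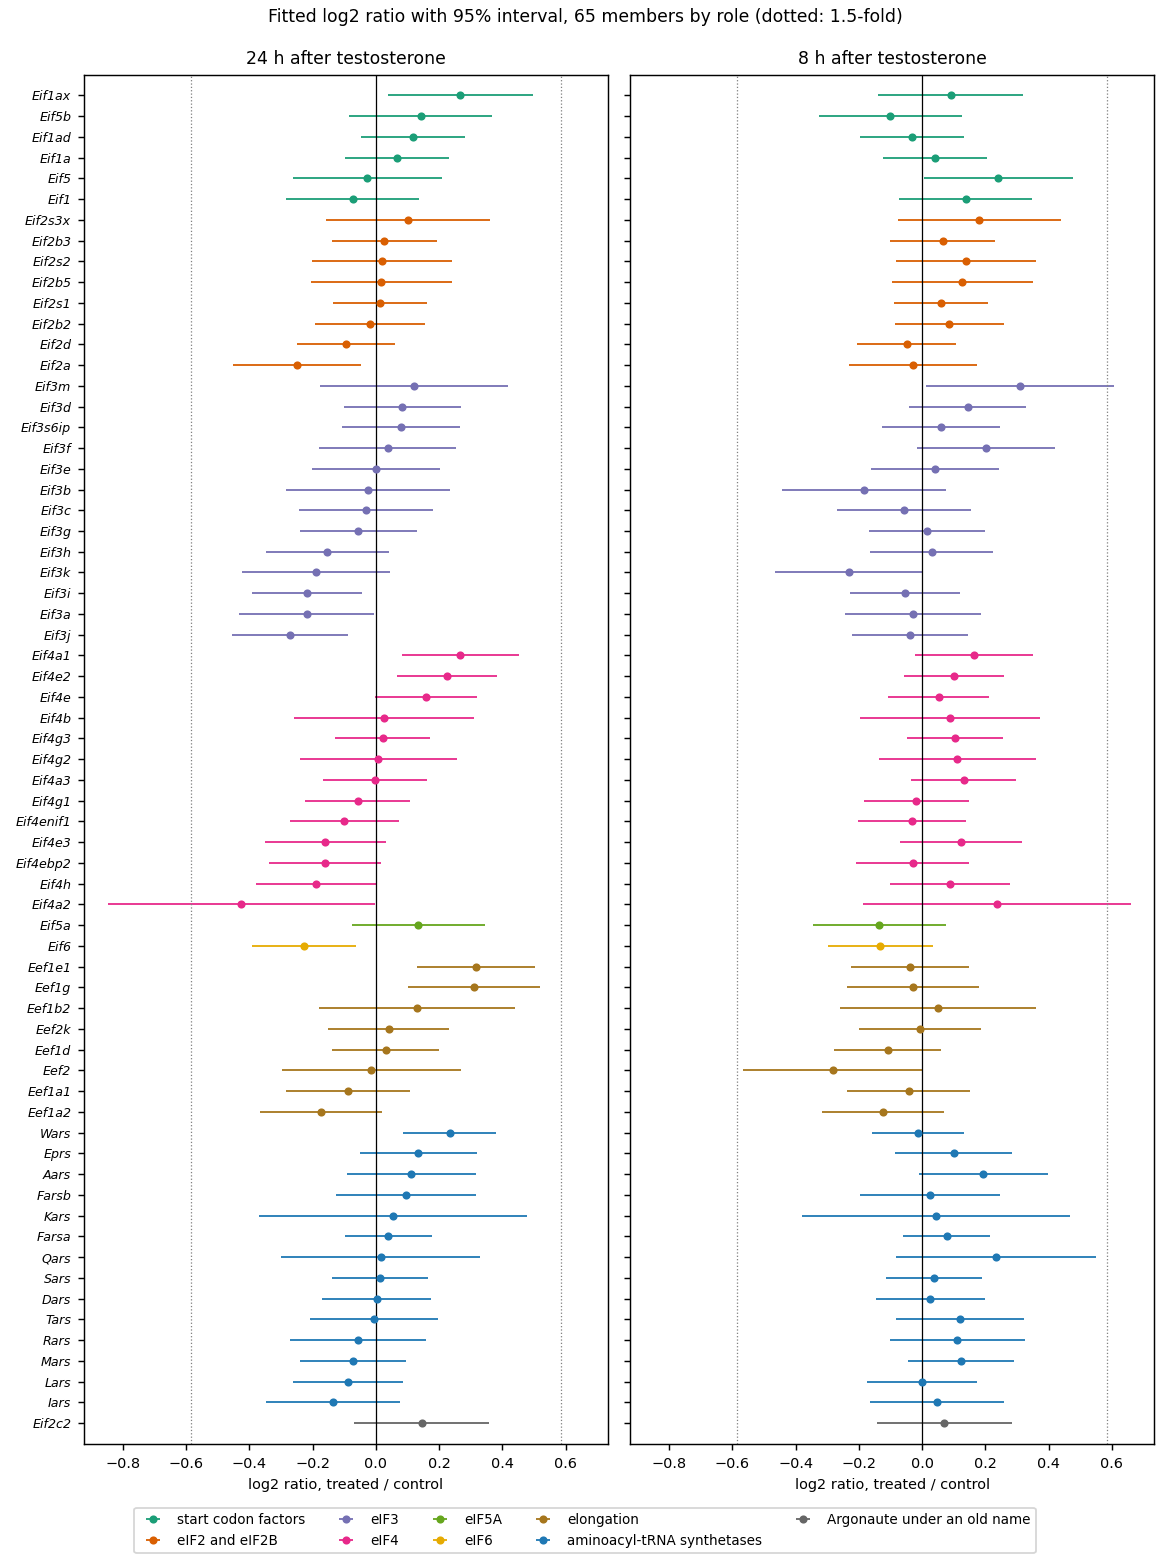
Fitted log2 ratio of treated over control (x axis) of the 65 measured members, grouped by role and sorted by the ratio at 24 h, for 24 h (left) and 8 h (right). Points are fitted ratios, bars are 95% intervals and dotted lines mark 1.5-fold in either direction; the points run from -0.43 to 0.32 at 24 h and from -0.28 to 0.31 at 8 h.

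The group of start codon factors, formed by gene name and so including Eif1ad, held 6 measured genes. Its median was 0.092 at 24 h and 0.066 at 8 h. Eif1ax, which keeps the scanning ribosome open, read 0.55, 0.35, -0.18 and 0.35 on the 4 arrays of 24 h, given here and below in the order of their numbers. Array 3 stood below 0 and the others above it. The fitted ratio was 0.27 (SD 0.31, n = 4, 95% interval 0.039 to 0.50, adjusted p = 0.157), and without array 3 it was 0.42 (adjusted p = 0.0321). The other kept probe of Eif1ax gave 0.089 (adjusted p = 0.507), so the probes differed in size. Eif5, which triggers GTP hydrolysis on eIF2 at the start codon, read 0.67, 0.19, -0.11 and 0.21 at 8 h, with array 1 the highest. Its fitted ratio of 0.24 (SD 0.32, adjusted p = 0.285) became 0.15 without that array. At 24 h Eif5 stood at -0.027, and Eif5b, the GTPase that joins the ribosomal subunits, at 0.14 (SD 0.25). Eif1, the partner of eIF1A in scanning, read 0.26, 0.15, -0.58 and -0.12 at 24 h. It stood above 0 on arrays 1 and 2 and below 0 on arrays 3 and 4, the pairs of opposite dye. Eif1a stood at 0.068. Eif1ad was well above background at 24 h in 3 of 4 treated samples and in 0 of 4 controls, so its level in the controls is only bounded. The treated mean was at least 1.06-fold the control mean, array 3 went the other way, and the difference did not pass (adjusted p = 0.409).

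The eIF2 group, which carries the initiator tRNA, held 8 measured genes with a median of 0.015 at 24 h and 0.075 at 8 h. Eif2s1, the alpha subunit whose phosphorylation slows initiation, read 0.027, -0.037, 0.017 and 0.044 at 24 h, all close to 0. Its fitted ratio was 0.013 (95% interval -0.14 to 0.16) at 24 h and 0.060 at 8 h. The beta subunit Eif2s2 stood at 0.020 and the gamma subunit, under the older name Eif2s3x, at 0.10 (95% interval -0.16 to 0.36). Among the subunits of eIF2B, the exchange factor that reloads eIF2 with GTP, the catalytic subunit Eif2b5 read 0.25, 0.052, -0.052 and -0.18 at 24 h, high on array 1 and low on array 4, with a fitted ratio of 0.017 (SD 0.18). Eif2b2 and Eif2b3 stood at -0.019 and 0.027. Eif2a and Eif2d carry similar names but are single proteins that can bring tRNA to the ribosome without eIF2. Eif2a read -0.16, -0.13, -0.26 and -0.44 at 24 h, below 0 on all 4 arrays. Its fitted ratio was -0.25 (SD 0.14, 95% interval -0.45 to -0.047, adjusted p = 0.138). At 8 h its arrays lay on both sides of 0, at -0.29, 0.23, -0.10 and 0.051.

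Of the subunits of eIF3, the large complex that holds the small ribosomal subunit ready, 13 were measured. Their median was -0.031 at 24 h, with 5 above 0 and 8 below, and 0.015 at 8 h. Eif3j, a loosely bound subunit near the decoding site, read -0.090, -0.24, -0.59 and -0.17 at 24 h, all below 0 with array 3 the lowest. The fitted ratio was -0.27 (SD 0.22, 95% interval -0.46 to -0.089, adjusted p = 0.0789). Eif3i was also below 0 on all arrays, at -0.36, -0.13, -0.10 and -0.28 (fitted -0.22, adjusted p = 0.133). Eif3a, the largest subunit and scaffold of the complex, read -0.11, 0.0011, -0.51 and -0.25, with array 3 the lowest and array 2 at 0. Its ratio of -0.22 (SD 0.22, adjusted p = 0.215) was accompanied at 8 h by values from -0.45 on array 1 to 0.51 on array 4. Eif3m, a subunit of the structural core of the complex, had the highest fitted ratio of any member at 8 h, 0.31 (SD 0.47, adjusted p = 0.282). It read 1.01, 0.031, 0.11 and 0.096, so array 1 alone stood high, and without it the ratio was 0.11. Eif3k read -0.45, -0.28, -0.070 and -0.13 at 8 h, below 0 on every array, with a fitted ratio of -0.23 (adjusted p = 0.294) and of -0.17 without array 1. Eif3b, which joins Eif3g and Eif3i in a module of the complex, read -0.39, 0.28, -0.29 and -0.33, where array 2 stood above 0 and the others below. Its ratio of -0.18 became -0.36 (adjusted p = 0.0299) without array 2 and -0.097 without array 1. The other 7, Eif3c, Eif3d, Eif3e, Eif3f, Eif3g, Eif3h and Eif3s6ip (now Eif3l), stood between -0.15 and 0.084 at 24 h.

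The eIF4 factors bind the cap and unwind the messenger. Of these, 13 were measured, with a median of -0.0022 at 24 h and 0.10 at 8 h. Eif4a1 and Eif4a2 encode the closely related helicases of the group, and they stood on opposite sides of 0 at 24 h. Eif4a1 read 0.27, 0.28, 0.25 and 0.28, the most even set of values among the members named here by rank. The fitted ratio was 0.27 (SD 0.016, 95% interval 0.081 to 0.45, adjusted p = 0.0882), and its other probe gave 0.21. Eif4a2 read -0.55, -0.54, -0.83 and 0.22, low on arrays 1 to 3 and above 0 on array 4. Its ratio was -0.43 (SD 0.45, 95% interval -0.85 to -0.0023, adjusted p = 0.223), the lowest of any member, and -0.62 without array 4. At 8 h Eif4a2 read 1.01, -0.14, -0.13 and 0.21; the fitted 0.24 rested on array 1 and was -0.0090 without it. The difference between the helicases was not tested.

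**Figure D2:**
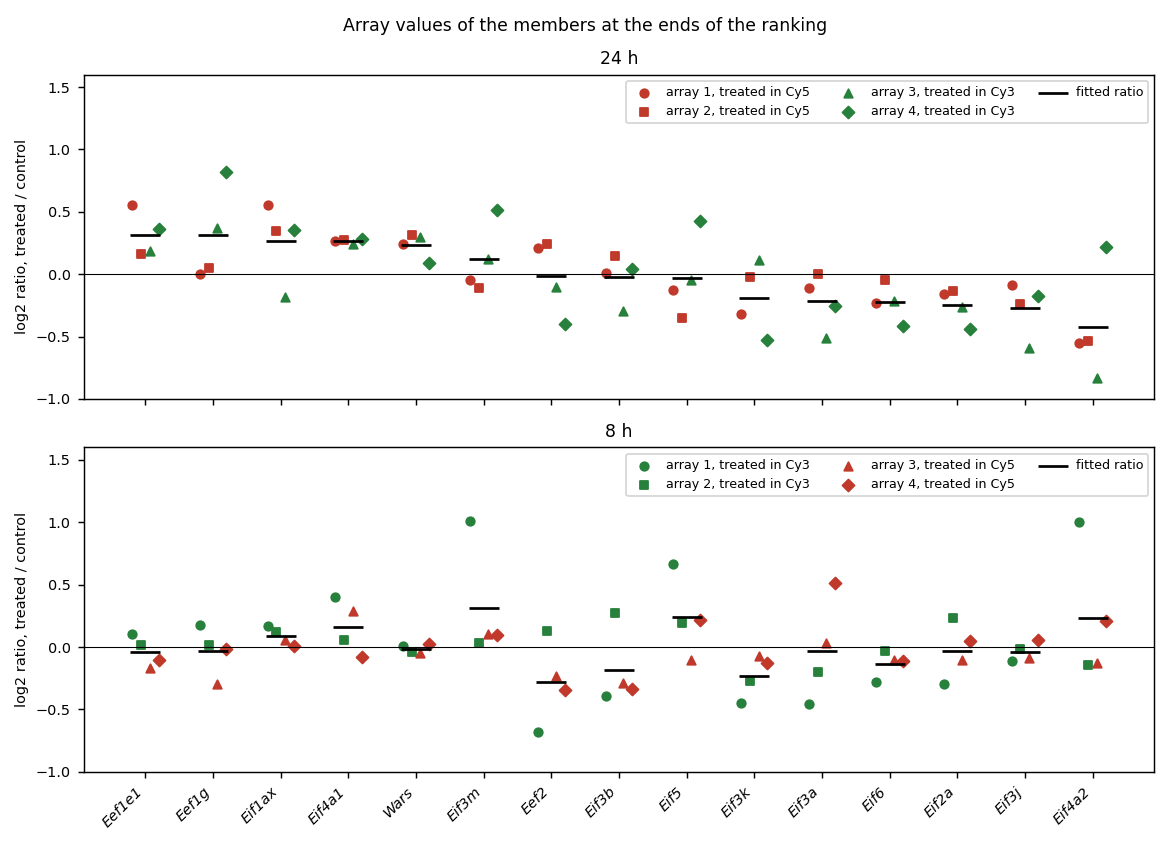
Log2 ratio of treated over control on each array (y axis) for the members with the highest and lowest fitted ratios at 24 h (top) and at 8 h (bottom), in both panels sorted by the ratio at 24 h. Each symbol is an array, red where the treated sample was in Cy5 and green where it was in Cy3, and bars are fitted ratios; Eif4a1 at 24 h is the tightest set (0.25 to 0.28), and array 1 of 8 h stands highest for Eif3m and Eif4a2 (both 1.01).

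Eif4e, the cap-binding protein, read 0.13, 0.28, 0.095 and 0.13 at 24 h, above 0 on every array, with a fitted ratio of 0.16 (95% interval -0.0018 to 0.32, adjusted p = 0.232). A dimmer probe of Eif4e gave 0.31. At 24 h it was well above background in 4 treated samples but in only 2 controls. This probe passed (adjusted p = 0.0248) when each probe was tested as a row of its own, where 6.9% of 12073 probes passed. At 8 h 0 of the 80 member probes passed that test, against 0.0249% of all probes. Eif4e2, a cap-binding relative that does not join eIF4G, read 0.20, 0.065, 0.43 and 0.21 (fitted 0.23, adjusted p = 0.0893), also above 0 on every array. Eif4e3, another relative, stood at -0.16 (SD 0.30). The scaffold Eif4g1 read 0.028, 0.00065, 0.0073 and -0.27, where only array 4 left the neighbourhood of 0, and its relatives Eif4g2 and Eif4g3 stood at 0.0069 and 0.022. The other kept probes of Eif4g2 gave 0.29 (adjusted p = 0.178) and 0.13, so its probes did not settle the size of its ratio. Eif4b, which stimulates the helicase, read -0.49, -0.23, 0.075 and 0.75. It was below 0 on the 2 arrays with treated RNA in Cy5 and above 0 on the 2 with it in Cy3. The fitted 0.026 (95% interval -0.26 to 0.31) averages over that split. The other kept probe of Eif4b read 0.19, 0.25, -0.14 and -0.14 (fitted 0.041), split the opposite way. The cause of these splits was not tested. Eif4h, a smaller relative of Eif4b, stood at -0.19 (adjusted p = 0.224). Eif4ebp2, an inhibitor that sequesters eIF4E, stood at -0.16 (95% interval -0.34 to 0.016), Eif4enif1, which carries eIF4E to the nucleus, at -0.099, and Eif4a3, the helicase of the exon junction complex, at -0.0022.

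Eif5a, which helps the ribosome through stalling stretches and carries the spermidine-derived residue hypusine, read 0.28, 0.22, 0.094 and -0.055 at 24 h and -0.55, 0.061, 0.051 and -0.10 at 8 h. Array 1 of 8 h was the lowest and array 4 of 24 h was just under 0. The fitted ratios were 0.13 (SD 0.15, adjusted p = 0.465) and -0.14 (SD 0.29; -0.014 without array 1), a difference of 0.27 between the times (adjusted p = 0.354). With median centring Eif5a stood at 0.46 at 24 h and passed (adjusted p = 0.0472). Eif6, which keeps the large ribosomal subunit from joining too early, read -0.23, -0.045, -0.21 and -0.42 at 24 h and -0.28, -0.030, -0.10 and -0.11 at 8 h, below 0 on all 8 arrays. Its fitted ratios were -0.23 (95% interval -0.39 to -0.061, adjusted p = 0.0997) and -0.13 (adjusted p = 0.364), the latter -0.095 without array 1.

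Elongation was covered by 8 measured genes, with a median of 0.035 at 24 h and -0.041 at 8 h, where 7 of 8 stood below 0 (6 without array 1). That count depends on the probe, because the other kept probes of Eef1d and Eef1g stood above 0 at 8 h (0.097 and 0.33). Eef1a1 and Eef1a2 encode the GTPase that delivers aminoacyl-tRNA; Eef1a2 is the form of mature muscle and neurons. Eef1a2 read -0.31, 0.15, -0.33 and -0.21 at 24 h and -0.24, -0.020, -0.16 and -0.079 at 8 h, below 0 on all arrays but array 2 of 24 h. Its ratios were -0.17 (95% interval -0.37 to 0.020, adjusted p = 0.28) and -0.12. Eef1a1 read -0.30, 0.23, -0.12 and -0.17 at 24 h (fitted -0.089, 95% interval -0.28 to 0.11). Eef2, which moves the ribosome by a codon, read -0.68, 0.13, -0.23 and -0.34 at 8 h, where array 1 was the lowest and array 2 stood above 0. The fitted ratio of -0.28 (SD 0.33, adjusted p = 0.293) was the lowest of any member at 8 h; it was -0.17 without array 1 and -0.49 (adjusted p = 0.013) without array 2. At 24 h Eef2 read 0.21, 0.24, -0.10 and -0.40, above 0 with treated RNA in Cy5 and below it in Cy3, with a fitted ratio of -0.014. Eef2k, the kinase that slows elongation by phosphorylating eEF2, stood at 0.040 (SD 0.24) at 24 h and -0.0067 at 8 h.

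The exchange complex that recharges the tRNA carrier has catalytic subunits encoded by Eef1b2 and Eef1d and a structural subunit encoded by Eef1g. Eef1g read 0.0012, 0.048, 0.37 and 0.82 at 24 h, highest on array 4 and near 0 on arrays 1 and 2. The fitted ratio was 0.31 (SD 0.38, 95% interval 0.10 to 0.52, adjusted p = 0.078), and 0.19 without array 4. The exon-spanning probe of Eef1g printed above gave 0.28 at 24 h and 0.33 at 8 h, where the brighter probe gave -0.028. At 8 h the exon-spanning probe read 0.79, 0.17, 0.080 and 0.26, with array 1 the highest. Eef1b2 read -0.44, -0.067, 0.52 and 0.51 at 24 h, with a fitted ratio of 0.13 (95% interval -0.18 to 0.44). It stood below 0 on arrays 1 and 2 and above 0 on arrays 3 and 4, the pairs of opposite dye. Eef1d read 0.098, 0.12, 0.14 and -0.24, close together except on array 4, with a fitted ratio of 0.030. Eef1e1 carries an elongation factor name, but its product, also known as AIMP3, is a scaffold of the multi-synthetase complex. It read 0.56, 0.16, 0.19 and 0.36 at 24 h, above 0 on all arrays with array 1 the highest, and 0.11, 0.013, -0.17 and -0.11 at 8 h, on both sides of 0. The fitted ratio at 24 h was 0.32 (SD 0.18, 95% interval 0.13 to 0.50, adjusted p = 0.052), a 1.25-fold level. It was 0.21 without array 1. With the processed signals it was 0.91 and passed (adjusted p = 0.00666).

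The aminoacyl-tRNA synthetases, 14 of them measured, had a median of 0.014 at 24 h, with 9 above 0 and 5 below. At 8 h the median was 0.062, with 12 of 14 above 0, and 2 at -0.00051 (Lars) and -0.013 (Wars); without array 1 there were 11 above 0. Wars, which charges tryptophan tRNA, had the highest ratio of the synthetases at 24 h. It read 0.24, 0.31, 0.30 and 0.085, above 0 on all arrays with array 4 the lowest, and 0.0086, -0.038, -0.050 and 0.028 at 8 h, all close to 0. The fitted ratio at 24 h was 0.23 (SD 0.10, 95% interval 0.087 to 0.38, adjusted p = 0.0628), and it exceeded that at 8 h by 0.25 (adjusted p = 0.229). Aars, for alanine, read 0.18, 0.17, 0.19 and 0.23 at 8 h, the most even of the synthetases above 0.1, with a fitted ratio of 0.19 (SD 0.028, adjusted p = 0.306), and of 0.24 without array 1. At 24 h Aars read -0.29, 0.033, 0.38 and 0.32, and only array 1 was below 0 (fitted 0.11, SD 0.31). Qars, for glutamine, had the highest ratio of the synthetases at 8 h, 0.23 (SD 0.42), from values of 0.81, -0.13, -0.011 and 0.26, again with array 1 far above the rest; without it the ratio was 0.026.

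The other synthetases lay between -0.14 and 0.13 at 24 h. Eprs, which joins the glutamate and proline enzymes in 1 chain, stood at 0.13 (95% interval -0.051 to 0.32), and Iars, for isoleucine, was the lowest at -0.14 (95% interval -0.35 to 0.075). Lars, for leucine, whose product is also described as a leucine sensor for mTORC1, read -0.15, -0.094, -0.27 and 0.16 (fitted -0.088). Mars, Rars, Sars, Tars, Dars and Farsa, for methionine, arginine, serine, threonine, aspartate and the alpha chain for phenylalanine, lay between -0.072 and 0.039 at 24 h, and Farsb, the beta chain, stood at 0.095. Kars, for lysine, had the widest interval: its brighter probe read 0.75, -0.36, -0.44 and 0.27 at 24 h, wide apart on both sides of 0, with a fitted ratio of 0.055 (SD 0.56, 95% interval -0.37 to 0.48). The other probe of Kars read 0.37, 0.17, 0.052 and 0.018, all above 0, with a fitted ratio of 0.15 (adjusted p = 0.271). The 8 enzymes of the multi-synthetase complex had a median of -0.027 at 24 h and the 6 others one of 0.067. By structural class the medians were -0.057 for the 7 of class I, Eprs counted there, and 0.039 for the 7 of class II. These differences between kinds of synthetase were not tested.

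Besides Eif4ebp2, Eif4enif1, Eef2k and Eef1e1, described above, the naming rule caught a further measured gene that makes no translation factor, Eif2c2. Now named Ago2, it makes an Argonaute protein that binds small RNAs. It read 0.40, 0.19, 0.18 and -0.18 at 24 h, with array 4 below 0 (fitted 0.15, 95% interval -0.068 to 0.36), and 0.070 at 8 h. It was well above background in all 4 treated samples but in 2 of 4 controls at 24 h and 1 of 4 at 8 h.

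Between the times, 0 of 65 members passed the test of the difference itself, against 1.3% of 10877 genes, and 6 had an unadjusted p under 0.05 (16.3% of all genes). The smallest adjusted p was that of Eef1e1, 0.171, with a ratio 0.36 higher at 24 h than at 8 h. Eif4a2 had the widest gap, -0.66 (adjusted p = 0.259). That gap was narrower without array 1 of 8 h, where the ratio of Eif4a2 at 8 h went from 0.24 to -0.0090. Without array 2 of 8 h the difference of Eef2 passed, when 592 genes in all did against 141. A difference of 0.60 would have been needed to pass at the median standard error of a member.

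Values of many members, as of other genes, divided between the arrays of opposite dye orientation. Within 24 h each orientation was also a pair of arrays, 1 and 2 against 3 and 4. Dye and array pair cannot be told apart there, and the cause of the split was not tested. Over all genes, arrays 1 and 2 of 24 h correlated at 0.71 and arrays 3 and 4 at 0.55, against 0.23 to 0.40 across the orientations. At 24 h both arrays with treated RNA in Cy3 stood above both arrays with it in Cy5 for 15 of 65 members (19.5% of all genes), and below them for 17 (28.4% of all genes). The fit holds a dye coefficient for each probe, and the swap is balanced at each time, so the fitted ratios average over this difference.

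**Figure D3:**
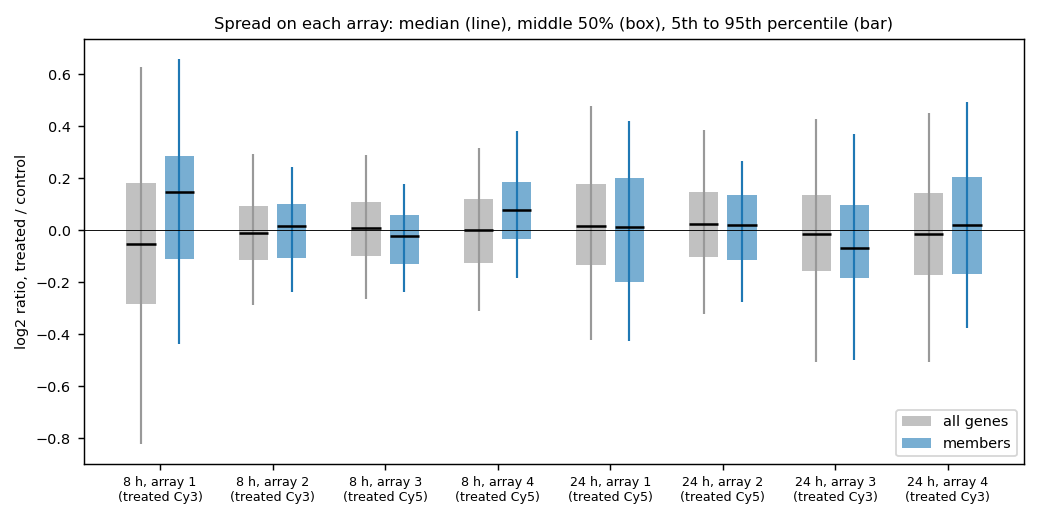
Log2 ratio of treated over control (y axis) on each of the 8 arrays, for all genes tested (grey) and for the 65 members (blue). Lines are medians, boxes hold the middle 50% and bars run from the 5th to the 95th percentile; array 1 of 8 h has the widest spread and the highest member median (0.15), and the member medians at 24 h lie between -0.069 and 0.020.

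Several probes allowed a check within the array for 13 members. Their kept probes differed by a median of 0.11 at 24 h and 0.089 at 8 h, similar in size to the members' standard errors. The probes had opposite signs for 3 of 13 at 24 h, namely Eif3h, Eif3k and Tars. At 8 h they did so for 7 of 13, namely Eef1d, Eef1g, Eif3h, Eif3j, Eif4b, Eif4g2 and Kars. For Tars the brighter probe gave -0.0061 and the other 0.18 at 24 h, and for Eif3k they gave -0.19 and 0.045. These small ratios therefore have no settled sign.

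At each time 58 of 65 members were well above background in both channels of all 4 arrays, and 0 members had a saturated spot. Their median log2 intensity was 7.51, against 6.93 for all genes, and 23 members were under 7, as were 52.5% of all genes. The scanner's processed signals, which carry no offset, gave the same sign as the offset fit for 56 of 65 members at 24 h and 59 at 8 h. With them 6 members lay beyond 0.5 at 24 h, namely Eef1e1 (0.91), Eif2c2 (0.71), Eprs (0.57), Eif4e (0.56), Eif4a1 (0.53) and Eif4enif1 (-0.54), as did 14.8% of all genes. Of the 6 only Eef1e1 passed the test.

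**Figure D4:**
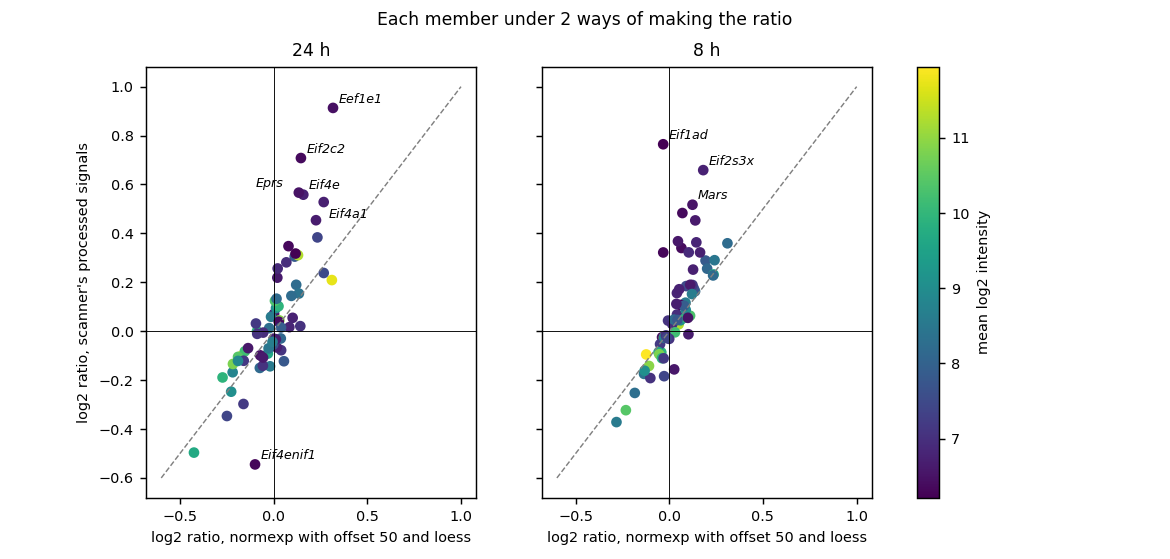
Log2 ratio of treated over control of each of the 65 members after normexp with offset 50 and loess (x axis) and from the scanner's processed signals (y axis), at 24 h (left) and 8 h (right), coloured by mean log2 intensity. The dashed line marks equal values; the members farthest from it are Eef1e1 at 24 h (0.32 against 0.91) and Eif1ad at 8 h (-0.033 against 0.76), both dim.

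Promoters were read for 57 of the 65 measured members from RefSeq sequences of assembly GRCr8, each with 250 bases before and 50 after the start of the gene. The motif TGATGNAAN, the composite site bound by C/EBP and ATF4 in genes of the amino acid response, was searched on both strands and stood in 6 of 57 member promoters, against 3.8% of 27457 promoters. Synthetases held 4 of the 6 (4 of 12 with a promoter), namely Aars, Iars, Mars and Tars, and the other members 2 of 45. The synthetase windows are shown 5′ to 3′ on the strand of the gene, with the motif in capitals; in each it lies on the other strand and so appears as its reverse complement. They lie at chr19:55908462-55908511 on the plus strand, chr17:15193648-15193697, chr7:65023742-65023791 and chr2:62114801-62114850 on the minus strand.
Aars: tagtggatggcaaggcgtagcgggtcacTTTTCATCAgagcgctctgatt
Iars: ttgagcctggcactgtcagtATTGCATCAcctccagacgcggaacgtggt
Mars: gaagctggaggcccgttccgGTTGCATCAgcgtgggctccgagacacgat
Tars: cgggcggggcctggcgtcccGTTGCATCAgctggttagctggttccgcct
At 8 h these 4 genes stood at 0.19, 0.046, 0.12 and 0.12, and at 24 h at 0.11, -0.14, -0.072 and -0.0061, none of which passed. Array 1 of 8 h was the highest array of that time for Iars, Mars and Tars (0.25, 0.30 and 0.35). Array 3 of 8 h stood below 0 for Iars and Tars (-0.24 and -0.13). The motif TGTTCT, a core hexamer of androgen receptor sites, stood on either strand in 5 of 57 member promoters, those of Eef1e1, Eif3a, Eif3s6ip, Eif5 and Kars, and in 20.1% of all promoters. A match is only a description of the letters.

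Many translation genes carry a run of C and T at their start, the hallmark of messengers whose translation mTORC1 controls. In the 25 bases on either side of the start, a run of 8 or more C or T stood in 15 of 57 member promoters. It did so in 19.3% of all promoters and in 5 of 7 elongation genes. Such runs were not particular to elongation: Eif3d, Eif3f, Eif3i, Eif3k and Eif3m had them, and Eif2s3x had 16 letters. The window also holds bases before the start, so a run need not lie at the 5′ end of the messenger. The window of Eef1b2, at chr9:72074066-72074115 on the plus strand of GRCr8, is shown because its run, in capitals, is the longest of the elongation genes with 15 letters.
Eef1b2: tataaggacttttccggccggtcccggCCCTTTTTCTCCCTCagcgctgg

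Genes that control or complete translation, and that the naming rule left out, were read from lists. Among 11 measured genes of translation control, 2 rose and 1 fell at 24 h and 0 passed at 8 h, beside 4.15% higher and 2.91% lower of all genes at 24 h. The list was not tested as a whole. Rps6, the ribosomal protein phosphorylated by S6 kinase, read 0.50, 0.45, 0.44 and 0.42 at 24 h, an even rise of 0.45 (SD 0.036, adjusted p = 0.0063); processed copies of this gene could share its probe. Rps6kb1, the S6 kinase itself, rose by 0.41 (SD 0.23, adjusted p = 0.0293) from values of 0.25, 0.20, 0.51 and 0.69, all above 0. That call was lost without any 1 of the 4 arrays of 24 h (0.33 to 0.47, adjusted p = 0.065 to 0.135) and without array 3 of 8 h (adjusted p = 0.0561). The call of Rps6 was lost without array 1 of 24 h (0.44, adjusted p = 0.0571).

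Ppp1r15a, which directs a phosphatase to eIF2 alpha and so restores initiation, fell at 24 h. It read -0.53, -0.66, -1.13 and -0.42, all below 0 with array 3 the lowest, and -0.067, 0.16, 0.28 and 0.44 at 8 h, where only array 1 was below 0. The ratio at 24 h was -0.68 (SD 0.32, adjusted p = 0.0055), a call that every set without 1 array kept, and it was lower than at 8 h by 0.89 on the log2 scale (adjusted p = 0.0236). The difference between the times was no longer past the threshold without array 3 or 4 of 8 h or array 1, 2 or 3 of 24 h (adjusted p = 0.0606 to 0.0963). With median centring that difference was -0.94 and did not pass either (adjusted p = 0.414). The eIF4E-binding protein gene Eif4ebp1, which the naming rule excluded, stood at 0.0047, and Mknk2, a kinase of eIF4E, at -0.39 (adjusted p = 0.102).

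Of 12 measured genes of the amino acid response, which ATF4 drives when eIF2 is phosphorylated, 1 rose and 2 fell at 24 h, beside the same 4.15% and 2.91% of all genes. Chac1, a glutathione-degrading enzyme induced by that response, fell by 0.45 on the log2 scale (SD 0.10, adjusted p = 0.00845), and Cebpb, a transcription factor that also answers many other signals, fell by 0.62 (SD 0.32, adjusted p = 0.0354). Phgdh, the entry enzyme of serine synthesis, rose (adjusted p = 0.0283), but it was well above background in 4 of 4 treated samples and in 0 of 4 controls, so the rise is only bounded, at least 1.16-fold. Its fitted log2 ratio ran from 0.25 to 1.48 over the other settings, the highest with the processed signals. The calls of Cebpb and Phgdh were lost without any 1 array of 24 h except array 4 for Cebpb (adjusted p = 0.0844 to 0.175 for Phgdh and 0.128 to 0.166 for Cebpb) and without array 3 of 8 h, that of Cebpb also without array 4 of 8 h, and that of Chac1 without array 2 of 24 h (adjusted p = 0.0539). Atf4 itself stood at 0.052 at 24 h and at 0.38 at 8 h (adjusted p = 0.264), from values of 0.71, 0.15, 0.27 and 0.39, all above 0, and at 0.26 (adjusted p = 0.907) without array 1.

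The remaining lists held no gene past the threshold at either time in this fit. They were 8 genes of termination, recycling and poly(A) binding (median 0.087 at 24 h), 2 partner proteins of the synthetase complex (-0.024), 8 mitochondrial synthetases (0.030) and 5 mitochondrial translation factors (-0.10).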

How the data were processed

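Total RNA of castrated rats with and without testosterone was hybridised to 8 Agilent 2-colour rat arrays. The submitters' processing notes name Agilent Feature Extraction 9.5.3.1 for the scans. As deposited, and per the file headers, mean signals and median backgrounds are raw intensity on a linear scale, processed signals are intensity after background and dye correction, and LogRatio is log10 of Cy5 over Cy3. The authors' value table, also deposited, is in log2, with no statement of scale, centring or direction. Set against the scanner columns, it equalled log2 of treated over control processed signals to within 1.35e-05 on every array, with column medians from -0.144 to 0.0896, so it served as the processed-signal alternative.

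In limma 3.58.1 (R 4.3.3), the background of mean signals was corrected by normexp with an offset of 50, followed by loess on each array. Control spots were dropped, as were flagged outliers (731 to 927 of 42877 spots per array). Spots of a probe were averaged, and 12074 of 30367 probes passed the filter on background. Where a gene had several kept probes, the brightest was used. Symbols came from RefSeq (GRCr8) by accession for 18005 probes and by symbol for 3222; 9140 probes had no symbol in that table. lmFit and eBayes fitted the 8 arrays together with terms for 8 h, for 24 h and for the dye, two-sided, with Benjamini-Hochberg adjustment over all genes at 0.05, which left 5 residual degrees of freedom. Whether replicates came from separate animals is not stated, so p-values measure the spread between these samples, and the number of arrays limits the precision. The fit was tested on simulated data. Members to name were the ends of the ranking at each time, a fixed set by role, and members with dim or discordant probes. The members, lists and rules were chosen with earlier results of these data known. Promoters were read with Python 3.11.15 and pandas 2.3.3.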

Additional observations from a re-analysis of the deposited data

Results flagged for a closer look

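In 86 sets of 4 arrays, the named members at each time and the member median, 5 had an array far from the other 3 by Dixon's gap test; chance sets apart about 5% of such sets. At 8 h, Eif3m stood at 1.01 on array 1 while the nearest other array was at 0.11, and Eif3b stood at 0.28 on array 2 with the nearest at -0.29. At 24 h, array 4 stood apart for Eif4g1, at -0.27 with the nearest at 0.00065, and for Eef1d, at -0.24 with the nearest at 0.098. The median over the members was -0.069 on array 3 of 24 h, against 0.011 to 0.020 on the other 3.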

How the results depend on the processing

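In 21 alternative settings, the count of members past the threshold at 24 h stayed at 0 in 12. It was 1 with normexp offset 16 and with the processed signals (Eef1e1 in both), 1 with median centring (Eif5a), 1 with each probe as its own row (Eif4e), when 870, 525, 402 and 833 genes or probes in all passed in that order, 7 with array weights (Eef1e1, Eef1g, Eif4a1, Eif4e2 and Wars higher, Eif2a and Eif3j lower) and 4 with each time fitted alone (Eef1e1, Eef1g and Eif4a1 higher, Eif2a lower). With array weights 1562 genes in all passed at 24 h and with each time alone 1595, against 769; 384 of the 402 with median centring were higher. Leaving out 1 array gave 0 to 3 members at 24 h: 3 without array 1 of 8 h (Eef1e1, Eif4a1 and Wars), 2 without array 2 of 8 h (Eef1e1 and Eif2a) and 1 without array 3 of 24 h (Eif1ax), when 1235, 1095 and 333 genes in all passed. At 8 h these sets gave 0 to 4 members, the 4 (Eif2s2 and Eif3m higher, Eef2 and Eif3b lower) without array 2, when 1228 genes in all passed, against 3. Between the times they gave 0 to 1, the 1 being Eef2 without array 2 of 8 h. The members' median moved beyond its spread between arrays only with median centring, to 0.264 at 24 h and 0.251 at 8 h. The cause was not tested. The replicate numbers were not taken to pair the samples: deviations of same-numbered arrays from their group means, which hold the dye difference, correlated at -0.262, 0.172, -0.159 and -0.081, and 1 of 8 arrays correlated best with its own number. Residuals of the fit, which removes the dye difference, correlated at 0.282, 0.191, 0.308 and 0.338, where the fit's constraints alone give 0.2 for arrays of equal spread without pairing. With the replicate block 0 members passed at 24 h, 0 at 8 h and 0 between the times, and 834 genes in all passed at 24 h; of the genes named, Phgdh lost its call (adjusted p = 0.068). With the processed signals Rps6kb1, Rps6 and Cebpb lost theirs (adjusted p = 0.067, 0.0733 and 0.0774), and with median centring Rps6, Ppp1r15a, Chac1, Phgdh and Cebpb did (adjusted p = 0.0834, 0.156, 0.185, 0.0502 and 0.256). Leaving out 1 array gave 190 to 1235 genes in all at 24 h. Signal over background limits the 23 members with a log2 intensity under 7.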
